A study of Mus musculus with 2 samples.

Results

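The small leucine-rich proteoglycans are secreted proteins of the extracellular matrix, and 7 of them were followed here: Dcn (decorin), Lum (lumican), Bgn (biglycan), Fmod (fibromodulin), Ogn (osteoglycin, also called mimecan), Aspn (asporin) and Prelp. The genes were chosen by name, as members of the family, and all 7 were found by symbol among the 32285 genes of the count tables. They were read in 2 single-cell libraries of subcutaneous tumors grown from SO, a mouse ovarian cancer line made from C57BL/6 cells that lack Trp53 and carry introduced Hras and Myc. Tumors of several female C57BL/6 mice of 6 to 8 weeks were pooled by genotype, so that WT and TSK mice gave 1 library each. TSK (tight skin) mice are heterozygous for an internal duplication in Fbn1, the gene of fibrillin-1, and were kept by backcrossing to C57BL/6. All cells of the digested tumors were loaded after removal of red and dead cells, with no sort for a cell type, and the same SO line was injected into both genotypes.

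Small leucine-rich proteoglycans bind collagen fibrils and shape their diameter and spacing, and several of them also hold growth factors such as those of the TGF-beta family in the matrix. Decorin and biglycan carry chondroitin or dermatan sulfate chains, lumican, fibromodulin and osteoglycin can carry keratan sulfate, and asporin and Prelp carry no such chains. Fibroblasts are known as their main source in connective tissue, and tumor stroma rich in collagen usually contains them. Biglycan is also known from the walls of blood vessels.

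The unit throughout is the unique molecular identifier (UMI), which counts RNA molecules from their 3′ ends, so that levels of different genes were compared without division by transcript length. A level is the summed UMIs of a gene per 1000000 UMIs of the same cells (CPM). After filtering, 1442 WT cells (median 7658.5 UMIs) and 2961 TSK cells (median 7302 UMIs) remained. Of the barcodes in the tables, 263 were present in both libraries, and these were left out. Intervals are exact 95% intervals that cover counting error only. Each genotype was a single library, so genotype and library cannot be told apart, and no p-value is given.

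There were 137 WT and 212 TSK fibroblasts. All 16 fibroblast genes had a UMI in both, but the cells were chosen by these same genes, so this does not test the name. Mural cells (pericytes and smooth muscle cells of vessel walls) numbered 20 and 61, endothelial cells 54 and 50, SO cancer cells 98 and 1142, macrophages 335 and 436, and T or NK cells 450 and 291. The WT library alone held 9 Schwann cells, the glia of peripheral nerves. WT fibroblasts were deeper than TSK fibroblasts, with medians of 22121 and 10419 UMIs per cell. The level of Fbn1 in fibroblasts was 1546 CPM in WT and 1968 in TSK, a log2 ratio of 0.35 (interval 0.29 to 0.41). The duplication itself is not seen in counts of 3′ ends, so Fbn1 does not check the genotype labels.

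The 7 genes lie in small clusters of related genes (GRCm38, GENCODE annotation). Dcn (ENSMUSG00000019929, chromosome 10, 97479609 to 97518143, plus strand) is followed by Lum (ENSMUSG00000036446, 97565128 to 97572703, plus strand) after a gap of 47.0 kb. Aspn (ENSMUSG00000021388, chromosome 13, 49544443 to 49567565) and Ogn (ENSMUSG00000021390, 49608046 to 49624501) lie 40.5 kb apart on the plus strand. Prelp (ENSMUSG00000041577, chromosome 1, 133910304 to 133921414, minus strand) and Fmod (ENSMUSG00000041559, 134037254 to 134048277, plus strand) are 116 kb apart, and Bgn (ENSMUSG00000031375, 73483602 to 73495933, plus strand) is on chromosome X. Both Ogn and Aspn overlap Cenpp, a centromere protein gene on the opposite strand, and Prelp overlaps the antisense gene Gm15851. Whether reads were assigned by strand is not given in the sources used here, so reads of an overlapping pair cannot be told apart. In fibroblasts, Cenpp had 3.91 CPM in WT and 12.5 in TSK, far below Ogn and Aspn, and Gm15851 had 0 and 1 UMIs.

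The sequences before the transcription start are shown for the 4 members that stood at the extremes of the patterns described below and were in the RefSeq table of GRCm38.p6: Ogn and Prelp, which were far lower in mural cells than in fibroblasts, and Bgn and Aspn, whose mural levels were within 2-fold of those in fibroblasts. Dcn and Lum are not shown. Each runs over the 250 bases before the RefSeq start, from 5′ to 3′ along the gene, with motif matches on either strand in capitals. The motifs searched were the letters TATAAA known as the TATA box, CCAAT known as the CCAAT box, GGGCGG known as the GC box, TGANTCA bound by the AP-1 factors, and GGAATG bound by the TEAD factors. They are chr13:49607765-49608014 (plus strand) for Ogn, chr1:133921402-133921651 (minus strand) for Prelp, chrX:73483351-73483600 (plus strand) for Bgn and chr13:49544193-49544442 (plus strand) for Aspn.
Ogn: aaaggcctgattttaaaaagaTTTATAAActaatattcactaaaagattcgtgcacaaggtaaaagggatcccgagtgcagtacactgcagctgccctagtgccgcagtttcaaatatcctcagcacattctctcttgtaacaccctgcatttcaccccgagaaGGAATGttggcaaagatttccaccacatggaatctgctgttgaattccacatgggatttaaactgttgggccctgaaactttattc
Prelp: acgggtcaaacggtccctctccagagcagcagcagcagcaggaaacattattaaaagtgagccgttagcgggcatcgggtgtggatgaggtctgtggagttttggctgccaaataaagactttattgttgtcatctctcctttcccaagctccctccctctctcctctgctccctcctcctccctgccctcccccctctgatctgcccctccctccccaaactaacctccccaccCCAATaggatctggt
Bgn: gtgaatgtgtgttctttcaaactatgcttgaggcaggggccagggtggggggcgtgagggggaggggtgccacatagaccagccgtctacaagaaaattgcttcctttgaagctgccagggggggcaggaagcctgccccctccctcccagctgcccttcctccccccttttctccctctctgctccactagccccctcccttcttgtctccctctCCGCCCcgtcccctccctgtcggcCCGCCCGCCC
Aspn: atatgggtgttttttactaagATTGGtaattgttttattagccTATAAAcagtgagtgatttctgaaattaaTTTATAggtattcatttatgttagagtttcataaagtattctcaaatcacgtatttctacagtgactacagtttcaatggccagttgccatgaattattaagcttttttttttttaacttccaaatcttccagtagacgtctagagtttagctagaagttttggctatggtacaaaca
The Bgn stretch held 3 GC boxes, of which the last pair overlap, within 34 bases of the start, and its G and C content was 64.4%. Ogn and Aspn each held 2 matches to TATAAA, at least 173 bases before the start and in Ogn overlapping on opposite strands, and had G and C contents of 42.0% and 30.0%. Ogn also held 1 GGAATG, and Prelp (55.6% G and C) and Aspn each held 1 CCAAT. Over the 32536 distinct stretches of this length in the table, TATAAA was found in 12.3%, CCAAT in 33.8%, GGGCGG in 33.0%, TGANTCA in 6.73% and GGAATG in 12.6%, and the median G and C content was 52.4%. These matches describe letters in 1 window, and no binding was measured. The Fmod stretch (51.2% G and C) held none of the 5 motifs.

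Fibroblasts were the main source of the family in both tumors. They held 83.9% of all UMIs of the 7 members in WT (24466 of 29150, interval 83.5 to 84.4%) and 57.7% in TSK (19591 of 33974, interval 57.1 to 58.2%), although they held only 18.0% and 4.92% of the UMIs of all genes. Over both libraries together, the share was 69.8%. SO cancer cells held 3.15% of the members' UMIs in WT and 22.0% in TSK, alongside 18.7% and 74.4% of the UMIs of all genes. Mural cells held 6.74% and 10.1%. Cells that passed the markers of several lineages were set aside and held 4.99% and 9.19%. The share of fibroblasts depended on how cells were chosen. It was 89.9% in WT and 68.1% in TSK when clusters of cells, found without the members, were named instead of single cells, and 71.6% and 83.7% under an upper limit of 10000 UMIs per cell, which leaves 26 and 102 fibroblasts. Without the fibroblasts that held a UMI of a mural marker (Acta2 and Tagln not counted) it was 23.0% and 24.2%, with 52 of 137 and 113 of 212 fibroblasts left. This alternative takes cells out of the fibroblasts but keeps their UMIs in the total. The share therefore falls by construction, and the fall does not tell which lineage was the main source.

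**Figure D1:**
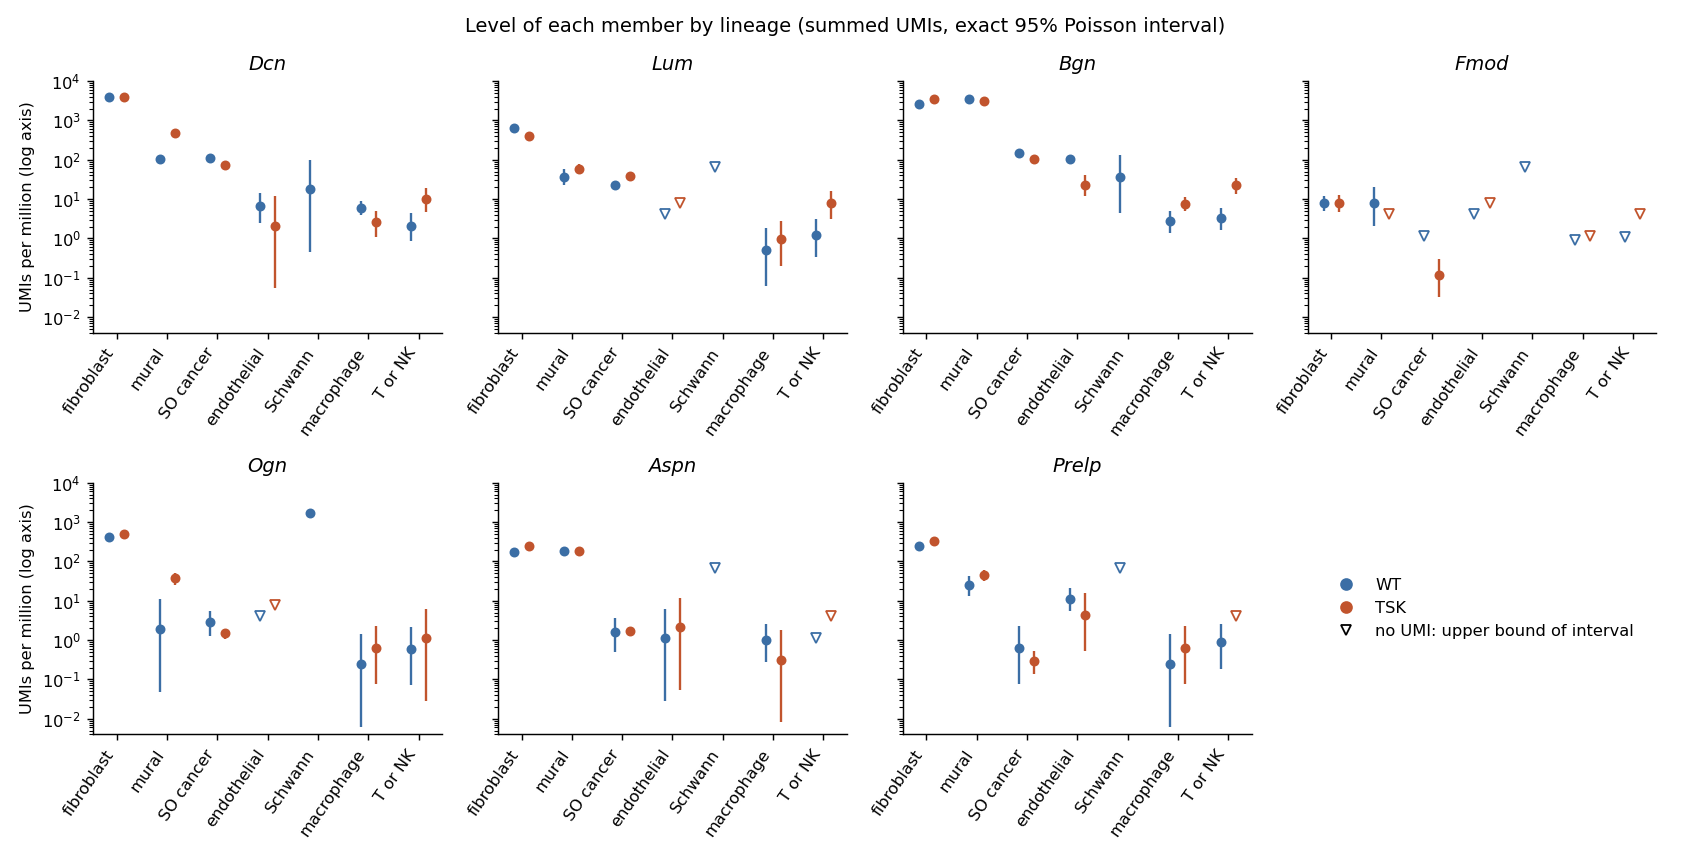
Level of each member (CPM, log axis) in 7 lineages of the WT and TSK libraries, with exact 95% Poisson intervals; open triangles give the upper bound of the interval where no UMI was found. Dcn, Lum and Prelp peak in fibroblasts, Bgn and Aspn are within 2-fold in mural cells, and Ogn is highest in the 9 Schwann cells.

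Decorin, which binds collagen and TGF-beta, was the most abundant member in fibroblasts. Dcn stood at 3942 CPM in WT (interval 3872 to 4013) and 3820.0 in TSK (interval 3740 to 3902), and 131 of 137 and 204 of 212 fibroblasts held a UMI. Next to it was biglycan, the closest relative of decorin, with 2543 (interval 2487 to 2600) and 3409.9 (interval 3334 to 3487). The remaining members were lower by several-fold. Lumican, which binds collagen and is needed for the clarity of the cornea, stood at 629.8 and 403 CPM. Osteoglycin stood at 418 and 508, Prelp, which links basement membranes to collagen, at 251 and 322, and asporin, an inhibitor of TGF-beta signaling, at 171 and 243. Fibromodulin was close to absent, with 24 and 18 UMIs in all fibroblasts, and 18 of the 24 in WT came from 1 cell. In WT the order was Dcn, Bgn, Lum, Ogn, Prelp, Aspn and Fmod, and in TSK Ogn and Lum changed places. The counting intervals of neighbours in these orders did not overlap in either library.

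Of 10 other genes of the family, 3 were measured in fibroblasts with at least 50 UMIs over both libraries. Podn (podocan) stood at 174 CPM in WT and 132 in TSK, Tsku (tsukushi) at 29.6 and 36.9, and Ecm2 at 24.4 and 29.4. Omd (osteomodulin), the neighbour of Ogn, had 18 UMIs in the fibroblasts of each library. Kera (keratocan), the neighbour of Lum, had none in any cell kept.

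Outside fibroblasts the members separated. In T or NK cells, which are not known to make them, Dcn stood at 2.10 CPM in WT and 10.0 in TSK, Bgn at 3.30 and 22.3, and Lum at 1.20 and 7.82. These levels were taken as the background of free RNA. T or NK cells were shallower in TSK, with a median of 2873 UMIs against 6799, and 1.56% of WT and 2.75% of TSK cells held a Dcn UMI. In macrophages Dcn was at 6.00 and 2.55, and Bgn at 2.75 and 7.64, at or near that background. In fibroblasts thinned to 500 UMIs per cell, 72.4% of WT and 69.6% of TSK cells held a Dcn UMI, against 0.114% and 0.688% of T or NK cells.

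Mural cells held biglycan and asporin within 2-fold of the fibroblast level, and the other 4 measured members were past 2-fold lower. Bgn stood at 3450 CPM in WT mural cells (interval 3291 to 3614) and 3160 in TSK (interval 3043 to 3281), and 19 of 20 and 61 of 61 cells held it. Against fibroblasts of the same library this was a log2 ratio of 0.44 (interval 0.36 to 0.51) in WT and -0.11 (interval -0.17 to -0.05) in TSK. Aspn stood at 182 and 184, with log2 ratios to fibroblasts of 0.09 (interval -0.24 to 0.41) and -0.41 (interval -0.67 to -0.15). Dcn was lower than in fibroblasts by far, at 103 in WT and 491 in TSK, with log2 ratios of -5.26 and -2.96. Ogn had 1 UMI in WT and 32 in TSK mural cells, against 1285 and 1143 in fibroblasts. Of the 6 members with at least 50 UMIs, 4 (Dcn, Lum, Ogn and Prelp) were past 2-fold lower in mural cells in each library and none was past 2-fold higher. Over all genes tested in the same way, 13.3% of 6704 in WT and 10.5% of 6821 in TSK were past 2-fold lower, and 14.6% and 12.0% past 2-fold higher. Lum, Ogn and Prelp in WT, and Ogn and Prelp in TSK, passed the minimum of 50 UMIs only through fibroblasts. The count of 4 is therefore not a result about the members.

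Mural cells of both libraries included some with fibroblast genes. Without the cells that held a UMI of Pdgfra, Clec3b or Pi16, a choice made after seeing the data, 16 of 20 WT and 53 of 61 TSK mural cells remained. Their Dcn then stood at 77.6 and 161, and their Ogn at 1 and 0 UMIs. Bgn remained at 3141 and 2998, and Aspn at 202 and 149. Of the 28 Dcn UMIs left in WT, 21 came from 1 cell.

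**Figure D2:**
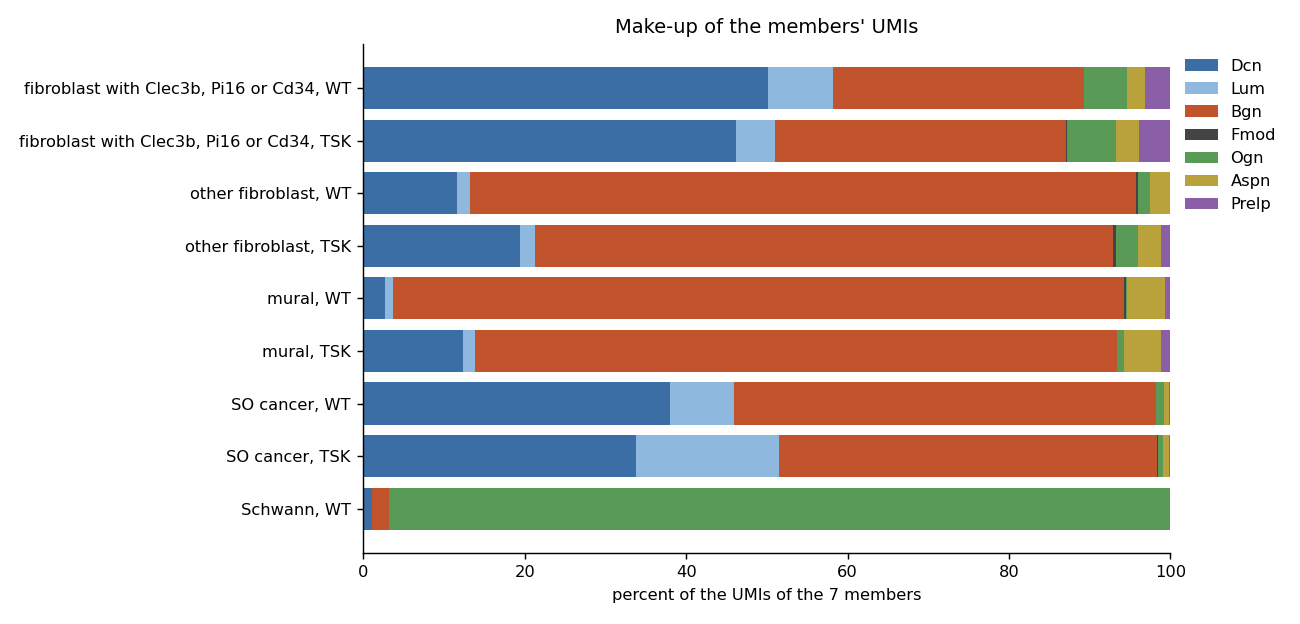
Percent of the summed UMIs of the 7 members that each member contributed, per lineage and library. Bgn makes up 90.6% and 79.5% in mural cells and 31.0% and 36.1% in fibroblasts with Clec3b, Pi16 or Cd34, whereas Ogn makes up 96.9% in the 9 WT Schwann cells.

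Osteoglycin was highest in Schwann cells. The 9 cells, all of the WT library, held 93 Ogn UMIs, a level of 1666 CPM (interval 1345 to 2041) and a log2 ratio of 1.99 over WT fibroblasts (interval 1.67 to 2.30). Ogn was found in 8 of the 9 cells, with a lowest count of 0, a median of 9 and a highest of 26 UMIs. The cell without Ogn had only 586 UMIs of all genes. The same 9 cells had 1 Dcn and 2 Bgn UMIs and none of Lum, Aspn, Prelp or Fmod, so that fibroblast levels were at least 11.7-fold higher for Lum, 4.67-fold for Prelp and 3.18-fold for Aspn when set against a floor of 3 UMIs over the group. Of 6102 genes with at least 50 UMIs in this comparison, 15.9% were past 2-fold higher and 44.9% past 2-fold lower in Schwann cells. Among the members, 1 (Ogn) was higher and 5 were lower. The Schwann cells held 55812 UMIs of all genes against 3072536 in WT fibroblasts. Those 5 members passed the minimum of 50 UMIs only through fibroblasts, so their count is not a result about the members. The TSK library held no cell that passed the Schwann markers, so this level has no counterpart there.

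Endothelial cells held little of the family. Bgn stood at 105 CPM in WT (94 UMIs) and 23.3 in TSK (11 UMIs), near the 22.3 of TSK T or NK cells. Of the 94 UMIs in WT, 63 came from 1 cell, and without the highest cell of each library the levels were 36.9 and 17.7. Lum and Ogn were not found in either library, which puts fibroblasts at least 187-fold (Lum) and 124-fold (Ogn) higher in WT and 63.2-fold and 79.9-fold higher in TSK, at a floor of 3 UMIs over the group. Prelp had 10 UMIs in WT and 2 in TSK.

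SO cancer cells held low but measurable Dcn, Bgn and Lum. Dcn stood at 109 CPM in WT (interval 98.1 to 121) and 74.4 in TSK (interval 71.5 to 77.3), Bgn at 151 and 103, and Lum at 22.8 and 39.3. All 3 were above the levels in T or NK cells of the same library. Ogn (2.82 and 1.47), Aspn (1.57 and 1.71) and Prelp (0.626 and 0.294) were not far from zero. The mixture therefore differed from that of fibroblasts: for each Ogn UMI there were 9.43 Dcn UMIs in WT and 7.51 in TSK fibroblasts, but 38.8 and 50.5 in SO cancer cells. For each Prelp UMI there were 15.7 and 11.9 Dcn UMIs in fibroblasts and 174.5 and 252.7 in SO cancer cells, the former of these resting on 2 Prelp UMIs.

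Lumican, like Dcn and Bgn, was held by a minority of SO cancer cells. Dcn was found in 43 of 98 WT and 529 of 1142 TSK cells, and Bgn in 39 and 543. The 10 WT and 115 TSK cells with the most Dcn held 77.4% and 59.7% of its UMIs, and for Bgn 80.7% and 61.4%. In WT, 6 of 98 cells held all 73 Lum UMIs, at least 3 each, and 40 of the 73 came from 1 cell. In TSK, 285 of 1142 cells (24.96%, interval 22.5 to 27.6%) held 1334 Lum UMIs, and the 115 cells with the most held 79.1%. The 144 TSK cancer cells with at least 3 Lum UMIs stood at 206 Lum CPM, and their Dcn was 141 and their Bgn 185, against 61.4 and 87.4 in the cells with fewer. The fibroblast markers together stood at 14.0 UMIs per 10000 in these cells and 8.86 in the others, against 413 in TSK fibroblasts, and the cancer cell markers at 18.4 and 23.4. The median depth was 37237 UMIs in the 144 cells and 26627 in the others. In WT, the 6 cells with Lum had more Dcn than the others (315 against 92.9 CPM) but not more Bgn (149 against 151) or fibroblast markers (13.1 against 14.0 per 10000). The part of other cells caught in the same droplets was not tested. In TSK, SO cancer cells held 51.8% of all Lum UMIs (interval 49.9 to 53.8%) and fibroblasts 35.1%, whereas in WT fibroblasts held 89.8% and SO cancer cells 3.39%. Of the UMIs of all genes, SO cancer cells held 74.4% in TSK and 18.7% in WT, and fibroblasts 4.92% and 18.0%. The Lum level of TSK SO cancer cells, 39.3 CPM, was far below the 403 of TSK fibroblasts.

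Within the fibroblasts, decorin, lumican, osteoglycin and Prelp went with a subset, and biglycan did not. Fibroblasts with a UMI of Clec3b, Pi16 or Cd34, genes known from the fibroblasts around vessels and in loose connective tissue, made up 127 of 137 cells in WT (92.7%, interval 87.0 to 96.4%) and 175 of 212 in TSK (82.5%, interval 76.8 to 87.4%). Clec3b and Pi16 are also among the genes by which fibroblasts were chosen, so these shares are in part set by that choice. Dcn stood at 4072 CPM in this subset and 445 in the 10 other fibroblasts of WT, and at 4330 and 966 in TSK. The log2 ratios were 3.19 (interval 2.79 to 3.63) and 2.16 (interval 2.01 to 2.33). Lum showed log2 ratios of 3.35 in WT and 2.28 in TSK, and Ogn of 2.99 and 2.09. Prelp had 771 UMIs in the WT subset and none in the other WT fibroblasts, at least 9.55-fold higher at a floor of 3 UMIs over the group, and a log2 ratio of 2.58 in TSK. These 4 of the 6 measured members were past 2-fold higher in each library, against 21.4% of 5991 genes in WT and 10.1% of 5438 genes in TSK. None was past 2-fold lower, against 15.9% and 5.79% of the same genes. Dcn, Lum, Ogn and Prelp in WT, and Lum, Ogn and Prelp in TSK, passed the minimum of 50 UMIs only through the subset. The count of 4 is therefore not a result about the members.

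Biglycan did not follow these 4 members. It stood at 2519 CPM in the subset and 3180.3 in the other fibroblasts of WT (log2 ratio -0.34, interval -0.49 to -0.18), and at 3382 and 3566 in TSK (log2 ratio -0.08, interval -0.17 to 0.01). Aspn lay between, with log2 ratios of 0.80 (interval -0.05 to 1.81) and 0.89 (interval 0.46 to 1.35). Summed over the 7 members, the level was 8115 against 3853 in WT and 9381 against 4981 in TSK, log2 ratios of 1.07 and 0.91. Biglycan therefore made up 31.0% of the members' UMIs in the WT subset and 82.5% in the other WT fibroblasts, and 36.1% and 71.6% in TSK.

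A cell with few UMIs can miss the subset's markers, and the other fibroblasts were shallower, with medians of 4529.5 against 23926 UMIs in WT and 7944 against 10798 in TSK. Fibroblasts were therefore also divided by marker density, at 5 UMIs of the 3 genes per 10000, a choice made after seeing the data, which gave like depths (medians of 23658 and 20708 UMIs in WT and 10381 and 10727 in TSK). The log2 ratio of the sum was then 0.20 in WT and 0.54 in TSK. Ogn remained past 2-fold higher at 2.11 and 1.89, while Dcn stood at just under 1.00 and at 1.20, Lum at 1.71 and 0.83 and Prelp at 0.45 and 0.94. Bgn was then past 2-fold lower in WT, at 1932 against 4168 CPM (log2 ratio -1.11, interval -1.17 to -1.04), and less so in TSK, at -0.22. The number of cells on the lower side of this division was 38 in WT and 63 in TSK.

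**Figure D3:**
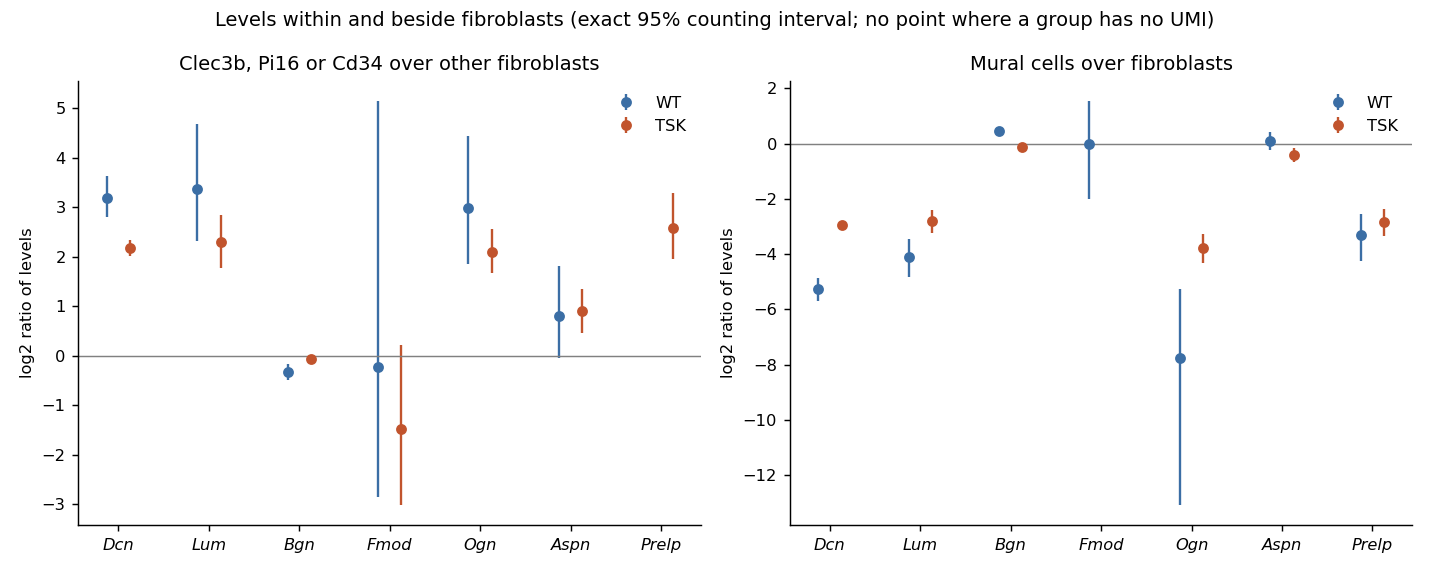
Left, log2 ratio of each member's level in fibroblasts with Clec3b, Pi16 or Cd34 over other fibroblasts; right, in mural cells over fibroblasts, with exact 95% counting intervals, for WT and TSK. Dcn, Lum and Ogn lie above 2 on the left and below -2 on the right in both libraries, and Bgn lies between -0.34 and 0.44 in both panels.

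Across single fibroblasts the members were also correlated, as a description, since the cells of a library share their depth and preparation. The Spearman correlation of UMIs per 10000 between Dcn and Lum was 0.55 over 137 WT cells and 0.49 over 212 TSK cells, between Dcn and Ogn 0.49 and 0.61, and between Dcn and Prelp 0.57 and 0.44. The correlation between Dcn and Bgn was 0.09 and 0.01. Bgn was not apart from every member, with 0.32 and 0.01 to Aspn and 0.30 and 0.18 to Prelp, as high in WT as the 0.31 between Lum and Ogn. Ogn and Aspn, which neighbour each other on chromosome 13, showed 0.45 and 0.41.

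Over 14 sums of a lineage in a library with at least 20 cells, the genes most like each member were named by the correlation of log2(CPM + 10), among 13163 other genes. Most like Dcn were Gfpt2 (a hexosamine pathway enzyme), Fbln1 (fibulin-1) and Gas1, with Pearson correlations of 0.99, 0.98 and 0.98. Most like Lum were Zfhx4, Cpxm1 and Gfpt2 (0.98 each). Most like Bgn were Cdc42ep5, Col6a3 (a chain of type VI collagen) and Bace1, at 0.99, 0.99 and 0.98, and most like Ogn were Thbs4 (a thrombospondin), Serpina3n (a protease inhibitor) and Sfrp2 (a secreted Wnt modulator), each 1.00. For Aspn they were Pth1r, Cdh11 and Srpx2 (0.99 each), and for Prelp Htra3 (a secreted protease), Tnxb (tenascin-X) and Adgrd1 (0.99 each). The 14 sums share libraries and are few, so many stromal genes reach like values. Col6a3 stood at 1709 CPM in WT and 1456 in TSK mural cells, above the 724 and 664 of fibroblasts, which Bgn did in WT but not in TSK, whereas Sfrp2, like Ogn, was far lower in mural cells (3.88 and 46.2) than in fibroblasts (527 and 499).

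Between genotypes, no member was past 2-fold in fibroblasts in either direction. Lum was lower in TSK, from 629.8 to 403 CPM, a log2 ratio of -0.65 (interval -0.76 to -0.53), and 84.7% of WT and 70.8% of TSK fibroblasts held it. Aspn was higher by 0.51 (interval 0.33 to 0.68), Bgn by 0.42 (interval 0.38 to 0.47), Prelp by 0.36 (interval 0.21 to 0.51) and Ogn by 0.28 (interval 0.17 to 0.40), all as log2 ratios of TSK over WT. Dcn differed by -0.05 (interval -0.09 to -0.01), and the sum of the 7 by 0.13 (interval 0.10 to 0.16). Fmod had too few UMIs to tell (0.04, interval -0.93 to 0.98).

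Of 8026 genes with at least 50 fibroblast UMIs over both libraries, 5.41% were past 2-fold higher and 2.90% past 2-fold lower in TSK, so that 0 of 6 members is near the share of all genes. The median log2 ratio was 0.22, with quartiles of -0.12 and 0.54, against 0.32 for the 6 members measured. Relative to that median, Aspn stood at 0.29, Bgn at 0.21, Prelp at 0.14, Ogn at 0.07, Dcn at -0.26 and Lum at -0.86, and the sum turned from 0.13 to -0.09. Lum had a lower ratio than all but 6.39% of these genes.

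**Figure D4:**
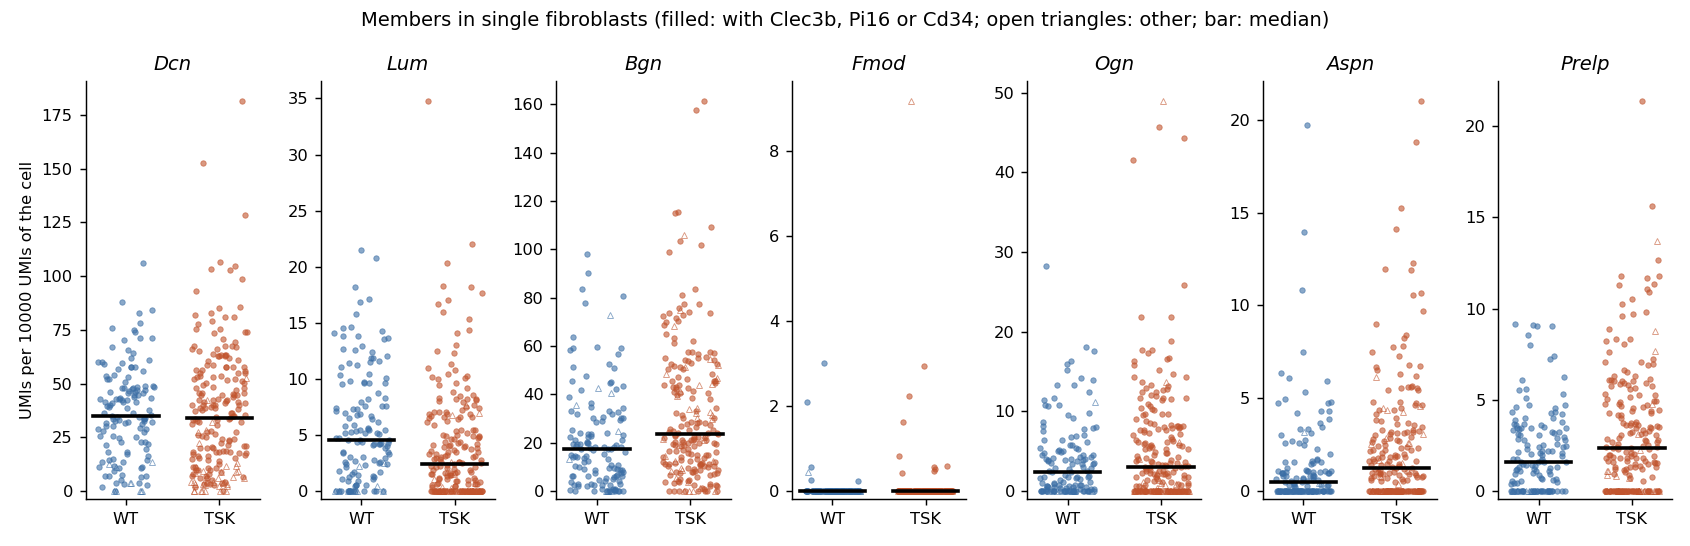
UMIs of each member per 10000 UMIs in every fibroblast of the WT (137 cells) and TSK (212 cells) libraries, on linear axes of their own; filled points are cells with Clec3b, Pi16 or Cd34, open triangles other fibroblasts, and bars the medians. The cells of both libraries overlap for every member, with the median of Lum at 4.57 in WT and 2.44 in TSK and that of Bgn at 17.3 and 23.8.

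The spread between cells was wide. Dcn per 10000 UMIs had quartiles of 17.1 and 48.4 around a median of 34.7 in WT, and of 11.6 and 53.9 around 34.1 in TSK. For Bgn the quartiles were 5.83 and 30.7 in WT and 11.1 and 46.7 in TSK, and for Lum 1.56 and 9.57 in WT and 0 and 6.54 in TSK. The ranges of the cells overlapped for all 7 members. The make-up of the family in fibroblasts moved accordingly, with Dcn at 49.5% of the members' UMIs in WT and 43.8% in TSK, Bgn at 31.9% and 39.1%, and Lum at 7.91% and 4.62%.

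The genotype ratios moved with the choice of cells. Under the upper limit of 10000 UMIs per cell, Bgn (log2 ratio 1.03) and Prelp (1.35) were past 2-fold higher in TSK, Dcn turned to 0.44, the sum was 0.61, and Lum remained lower at -0.40. Many genes passed 2-fold under this limit, 552 of 2119 higher and 300 lower, so these 2 members do not stand out. Without fibroblasts that held a UMI of a mural marker (52 WT and 113 TSK cells remained), Aspn was past 2-fold higher (1.29), Dcn turned to 0.06 and Fmod, on few UMIs, stood at 3.08. Of the 4767 genes then measured, 305 were past 2-fold higher and 109 lower. Markers of other lineages in the fibroblasts also differed between the 2 libraries. The 6 smooth muscle genes, all found in both, summed to 0.462 UMIs per 10000 in WT and 2.98 in TSK. They include Acta2, Tagln and Actg2, which the study names as myofibroblast markers enriched in the fibroblasts of TSK tumors. Acta2 and Tagln were not counted when fibroblasts with a mural marker were left out. The pericyte genes summed to 1.15 (7 of 7 found) and 1.81 (6 of 7, Higd1b at 0), and the median fibroblast of the TSK library held none of either list. The SO cancer cell markers summed to 0.127 in WT and 0.672 in TSK (7 of 10 found in each, without Epcam and Msln in both, Krt8 in WT and Krt7 in TSK), and the endothelial markers to 2.97 (9 of 10, Cldn5 at 0) and 1.21 (7 of 10, Emcn, Tie1 and Cldn5 at 0). The part of these markers in the other ratios was not tested beyond this. In the fibroblasts with Clec3b, Pi16 or Cd34 alone, the log2 ratios of TSK over WT were 0.09 for Dcn, -0.51 for Lum, 0.42 for Bgn, 0.41 for Ogn, 0.59 for Aspn and 0.50 for Prelp.

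In the other lineages the ratios had other sizes and signs, and the differences between lineages were not tested. In mural cells, Bgn differed by -0.13 (interval -0.21 to -0.04) and Aspn by 0.01 (interval -0.36 to 0.40). The Bgn ratio was -0.08 (interval -0.17 to 0.02) without the highest cell of each library. It was -0.07 (interval -0.17 to 0.04) without the cells that held Pdgfra, Clec3b or Pi16. Dcn in mural cells was higher in TSK by a log2 ratio of 2.26 (interval 1.84 to 2.70), which was 1.06 (interval 0.45 to 1.71) without the cells that held Pdgfra, Clec3b or Pi16. Of 4293 genes, 7.43% were past 2-fold higher and 3.28% past 2-fold lower in TSK mural cells, where 1 of the 5 members measured, Dcn, was past 2-fold higher and none lower. In SO cancer cells, Dcn (-0.55, interval -0.72 to -0.39) and Bgn (-0.54, interval -0.68 to -0.40) were lower in TSK and Lum was higher (0.78, interval 0.44 to 1.14), whereas none of the 5 members measured was past 2-fold, against 9.78% of 12736 genes higher and 7.20% lower. Without the highest cell of each library, Lum in SO cancer cells stood at 10.5 CPM in WT and 38.0 in TSK, a log2 ratio of 1.86. In endothelial cells, Bgn was lower by -2.17 (interval -3.22 to -1.27), where 5.04% of 3985 genes were past 2-fold lower and 8.76% past 2-fold higher, and by -1.06 (interval -2.39 to 0.09) without the highest cells.

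**Figure D5:**
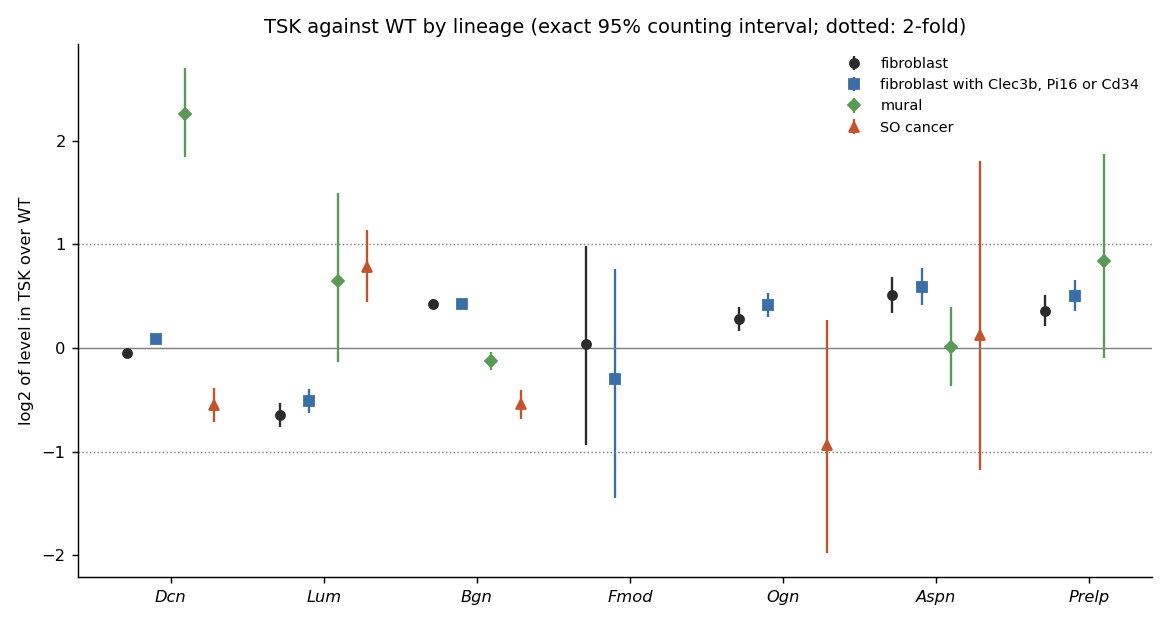
Log2 ratio of the level in TSK over WT for each member in fibroblasts, in fibroblasts with Clec3b, Pi16 or Cd34, in mural cells and in SO cancer cells, with exact 95% counting intervals; dotted lines mark 2-fold, and members with 3 or fewer UMIs in a library are not drawn. Lum lies at -0.65 in fibroblasts and 0.78 in SO cancer cells, and Dcn passes 2-fold only in mural cells among the groups drawn.

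The partners of these proteoglycans in fibroblasts were read from lists of genes, whose counts stand beside the 5.41% of all genes past 2-fold higher and the 2.90% past 2-fold lower in TSK. Of 10 collagens that the members bind, all were measured and none was past 2-fold in either direction. Col6a1 was lowest (955 CPM in WT and 730.4 in TSK, log2 ratio -0.39) and Col12a1 highest (625 and 793, 0.34). Of 17 measured genes for the chondroitin and dermatan sulfate chains, none was past 2-fold. Ust, which sulfates uronic acid in these chains, was lowest (352 and 222, log2 ratio -0.67, interval -0.82 to -0.51), and Chst15 was highest (0.55, interval -0.09 to 1.20). For keratan sulfate only 2 of 8 genes were measured, B4galt1 (-0.11) and B3gnt2 (0.22). Among those not measured, Chst1, Chst2, Chst4 and Chst5, which are sulfotransferases, had fewer than 50 fibroblast UMIs over both libraries.

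Of 9 measured genes listed for cutting the members or their precursors, all but Pcolce, an enhancer of such a protease, are proteases. Adamts4, which cleaves large proteoglycans and also members of this family, was past 2-fold higher in TSK (35.5 CPM in WT and 91.6 in TSK, log2 ratio 1.37, interval 1.03 to 1.72). None of the 9 was past 2-fold lower. Mmp3 (stromelysin-1), which can cut decorin, came close to 2-fold lower (1275 and 664, log2 ratio -0.94, interval -1.03 to -0.86). Scaled to the median of all genes, Mmp3 was past 2-fold lower at -1.16, and Adamts4 remained past 2-fold higher at 1.15. Among 10 measured growth factors and receptors bound by members, 3 were past 2-fold higher: Tgfb2 (65.4 and 152, log2 ratio 1.21, interval 0.96 to 1.47), Bmp2 (9.11 and 19.1, 1.07, interval 0.35 to 1.81) and Tgfb1 (40.4 and 82.3, 1.03, interval 0.69 to 1.37). After the same scaling none of the 3 was past 2-fold, with Tgfb2 at 0.997, Bmp2 at 0.85 and Tgfb1 at 0.81. Egfr, which decorin can bind, was lowest (467 and 319, log2 ratio -0.55, interval -0.68 to -0.42). Of 7 microfibril proteins, Mfap5 was past 2-fold higher (615 and 1272, log2 ratio 1.05, interval 0.96 to 1.13, but 0.83 after scaling), Ltbp1 was lowest (169 and 145, -0.22), and Fbn1 stood at 0.35. The medians of the log2 ratios were 0.37 for the growth factors and receptors, 0.25 for the microfibril proteins and 0.07 for the proteases with Pcolce. They were 0.06 for the 2 keratan sulfate genes, 0.04 for the chondroitin and dermatan sulfate genes and -0.10 for the collagens. For the 3 other family members the median was 0.27, beside 0.22 over all genes tested. Among the 3 other family members, none was past 2-fold, with Podn lowest (-0.40, interval -0.61 to -0.20) and Tsku highest (0.32, interval -0.13 to 0.76).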

How the data were processed

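Single-cell 3′ libraries were made from pooled tumors, 1 per genotype. The authors deposited raw UMI counts per gene and barcode, which the file header credits to Cell Ranger 7.1.0; per the labels the build was mm10 (GRCm38), and no normalization was applied. Of 32285 gene identifiers, 32235 were in GENCODE M21, 31502 with the same symbol.

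Cells with at least 200 genes, at least 500 UMIs and at most 10% mitochondrial UMIs were kept, without the upper limit of 10000 UMIs used by the study. Barcodes in both libraries (263) were left out. The tables held 2332 WT and 4436 TSK barcodes with 21225411 and 48296765 UMIs. A cell joined a lineage when its summed marker UMIs per 10000 and the number of markers found reached set limits (fibroblast 50 and 5, mural 20 and 4, endothelial 20 and 3, SO cancer 5 and 2, macrophage 15 and 3, T or NK 15 and 2, Schwann 50 and 2). No marker is a member. The mural gate took precedence over the fibroblast gate, and other cells that passed more than 1 gate were set aside; no doublet caller was run. The limits were set after marker UMIs had been seen.

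UMIs were summed per lineage and library. Exact Poisson, binomial and conditional 95% intervals were computed with Python 3.11.15, numpy 2.4.6, scipy 1.17.1 and pandas 2.3.3. The alternative clusters used scikit-learn 1.9.0, igraph 0.11.9 and leidenalg 0.10.2, and figures matplotlib 3.10.9. Past 2-fold means a log2 ratio of at least 1 or at most -1 among genes with at least 50 UMIs over both groups compared. Sums for the fibroblast comparison of TSK with WT were simulated with counting error only and no spread between cells. Of the 8026 intervals, 95.7% held the ratio put in, and 100% of the 200 genes given a change were called. That change was set well past 2-fold, so its recovery was to be foreseen. The simulation checks the computation of the intervals and not whether they hold between cells or libraries. Named were all 7 members, the 3 genes most like each member with at least 100 UMIs, and, of each list, its genes past 2-fold, highest and lowest, with Fbn1; genes named otherwise were chosen after their values were seen. The members and lists were chosen with earlier results of these data known. Alternatives were the study's upper limit, shared barcodes kept, a 20% mitochondrial limit, equal weight per cell, Leiden clusters, fibroblasts without mural markers, scaling by the median ratio, and other limits for the subset and for low counts.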

Additional observations from a re-analysis of the deposited data

Results flagged for a closer look

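Several members differed between TSK and WT in opposite directions in different lineages, beyond the counting interval of each ratio. Intervals that left out 0 were common over all genes tested. Their share was 43.4% in fibroblasts, 34.9% in mural cells, 39.2% in endothelial cells and 49.6% in SO cancer cells. The difference between lineages was not tested, since each genotype was 1 library. For Dcn, the log2 ratio of TSK over WT was 2.26 in mural cells, -0.045 in fibroblasts and -0.55 in SO cancer cells. For Lum it was 0.78 in SO cancer cells and -0.65 in fibroblasts. For Bgn it was 0.42 in fibroblasts, -0.13 in mural cells, -2.17 in endothelial cells and -0.54 in SO cancer cells. Some of these ratios did not hold under other choices of cells. Without the highest cell of each library, the Bgn interval took in both signs in mural cells (-0.17 to 0.02) and endothelial cells (-2.39 to 0.09). Dcn in fibroblasts was positive under 3 of 8 alternatives.

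Members were also counted in the barcodes found in both libraries, which were left out of the values above and of those in the report, and kept only in an alternative. In WT these barcodes held 1282 Bgn, 392 Dcn, 95 Lum, 92 Aspn, 33 Ogn and 15 Prelp UMIs, and in TSK 36 Dcn, 18 Bgn and 6 Lum UMIs.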

How the results depend on the processing

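No paired analysis was possible because each genotype was 1 library and no test was made. No replicate could be left out for the same reason. The division by marker density and leaving out the highest cell or mural cells with fibroblast genes were chosen after seeing the data. The share of the members' UMIs held by fibroblasts was, in WT, TSK and both together, 71.6%, 83.7% and 82.0% under the upper limit of 10000 UMIs and genes, 89.9%, 68.1% and 78.2% with Leiden clusters, and 23.0%, 24.2% and 23.6% without fibroblasts that held a mural marker, an alternative that takes cells out of the fibroblasts by construction. With shared barcodes kept it was 78.8% in WT and 67.7% in both. The log2 ratio of the sum of the members in fibroblasts, TSK over WT, was 0.61 under the upper limit, 0.26 with equal weight per cell, 0.064 with Leiden clusters and 0.21 without mural markers, and it turned to -0.086 when scaled to the median of all genes. Dcn turned to 0.44 under the upper limit, 0.051 with equal weight per cell and 0.057 without mural markers. The log2 ratio of the sum between fibroblasts with Clec3b, Pi16 or Cd34 and the others was, in WT and TSK, 1.27 and 1.14 under the upper limit, 1.32 and 1.04 with equal weight, 0.66 and 0.65 with Leiden clusters, 0.40 and 1.05 without mural markers, 1.36 and 0.83 when at least 2 UMIs were asked for, and 0.20 and 0.54 by density. In WT it was 1.25 at a mitochondrial limit of 20%. Of 8026 genes in fibroblasts, 434 were past 2-fold higher and 233 lower between genotypes, and 201 and 376 after scaling. They numbered 1145 and 713 of 12156 at a minimum of 10 UMIs, and 145 and 78 of 3538 at a minimum of 200 UMIs. Under the upper limit they numbered 552 and 300 of 2119, and without mural markers 305 and 109 of 4767. For these changes the cause was not tested. Keeping shared barcodes could not move a fibroblast level, since none of them passed the fibroblast gate. Under the 7 other alternatives Lum kept its sign, as did Bgn, Ogn, Aspn and Prelp, but intervals included 0 for Lum (-0.81 to 0.032) and Aspn (-0.13 to 1.27) under the upper limit and for Ogn (-0.051 to 0.18) and Prelp (-0.0045 to 0.29) after scaling, and equal weight per cell gave no interval. Fmod, with 24 and 18 UMIs, could not be resolved at this depth.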

Other observations

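Among other genes of the family, Podn was highest in fibroblasts and stood at 31.0 CPM in WT and 18.5 in TSK mural cells. Ecm2 stood at 25.2 CPM in WT mural cells against 24.4 in WT fibroblasts, at 6.93 against 29.4 in TSK, and at 11.2 and 10.6 in endothelial cells. Nyx (nyctalopin), a member known from the retina, had 10 of its 15 WT UMIs and 131 of its 147 TSK UMIs in SO cancer cells, at levels of 3.13 and 3.86 CPM, where SO cancer cells held 18.7% and 74.4% of the UMIs of all genes. Epyc (epiphycan), known from cartilage, had 13 of its 14 TSK UMIs in SO cancer cells.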
